A study of Mus musculus with 3 samples.

Results

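The Mef2 family comprises 4 mouse genes, Mef2a, Mef2b, Mef2c and Mef2d, and all regions bound in Runx1 chromatin immunoprecipitation and sequencing (ChIP-seq) that the authors assigned to these symbols are described here. They were 8 of 15286 regions over 3 replicates: 1 of 451 in replicate 1, 1 of 1641 in replicate 2 and 6 of 13194 in replicate 3. Runx1 is a RUNT-domain factor of haematopoietic cells, microglia among them. The replicates formed 1 group: male C57BL/6J mice, aged 8 to 10 weeks, gave spinal cord cells, and each immunoprecipitation combined about 10 µg of chromatin from 10 cords with 9 µg of a rabbit polyclonal Runx1 antibody. The samples used here hold no second treatment, genotype or tissue, and values are therefore compared across replicates and genes. The labels describe no sorting by cell type, and fewer bound cells of a type cannot be told apart from weaker binding in each cell. Whether replicates shared animals is not stated in the labels. Replicate 3, which gave 6 of the 8 regions, has the antibody in its tissue field, and its tissue was taken from its title.

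MEF2 proteins are transcription factors with a MADS box, a DNA-binding domain they share with serum response factor, and they bind AT-rich sites as dimers. Class IIa histone deacetylases hold them in a repressed state, and calcium and MAP kinase signals release them to recruit acetyltransferases. In the nervous system MEF2 factors are known for activity-dependent gene expression and synapse number in neurons, and MEF2C for restraint of inflammatory responses in microglia.

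The DNA before one start site of each gene is shown first, since the genes differed in whether a region lay there. The sequences are the 250 bases before a RefSeq start (build GRCm38.p6), 5′ to 3′ in the direction of the gene, with each CG dinucleotide in capitals. Mef2a lies at chr7:67372859-67373108 on the minus strand, Mef2d at chr3:88142122-88142371, Mef2b at chr8:70152511-70152760 and Mef2c, at the RefSeq start nearest to its regions, at chr13:83523406-83523655, these 3 on the plus strand.
Mef2a: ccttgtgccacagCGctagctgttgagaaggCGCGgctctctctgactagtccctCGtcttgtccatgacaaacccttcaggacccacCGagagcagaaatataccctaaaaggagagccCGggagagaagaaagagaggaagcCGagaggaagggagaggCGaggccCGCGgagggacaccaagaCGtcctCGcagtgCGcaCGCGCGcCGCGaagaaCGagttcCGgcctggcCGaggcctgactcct
Mef2d: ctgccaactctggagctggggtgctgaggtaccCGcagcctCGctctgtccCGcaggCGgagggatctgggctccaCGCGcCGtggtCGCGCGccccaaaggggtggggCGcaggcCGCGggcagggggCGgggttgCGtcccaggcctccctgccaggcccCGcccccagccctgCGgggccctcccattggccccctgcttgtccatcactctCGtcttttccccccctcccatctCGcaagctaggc
Mef2b: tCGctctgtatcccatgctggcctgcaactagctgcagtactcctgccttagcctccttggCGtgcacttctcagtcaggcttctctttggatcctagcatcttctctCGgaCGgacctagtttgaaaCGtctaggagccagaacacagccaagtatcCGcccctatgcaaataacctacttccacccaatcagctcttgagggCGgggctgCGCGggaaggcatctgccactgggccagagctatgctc
Mef2c: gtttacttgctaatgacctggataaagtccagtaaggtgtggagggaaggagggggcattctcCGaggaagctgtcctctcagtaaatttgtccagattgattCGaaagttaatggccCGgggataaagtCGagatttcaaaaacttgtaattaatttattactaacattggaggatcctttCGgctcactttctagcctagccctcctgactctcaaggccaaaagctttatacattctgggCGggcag
In replicate 3 a region overlapped the Mef2a and Mef2d windows, and none overlapped the Mef2b and Mef2c windows. The 250 bases held 21 CG dinucleotides in Mef2a and 19 in Mef2d, against 9 in Mef2b and 6 in Mef2c.

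Of the 8 regions of the Mef2 genes, 6 came from the longest list. Mef2a and Mef2d each had regions in 2 replicates, Mef2c in replicate 3 alone, and Mef2b in none. Replicate 1 had a region at 1 of the 4 genes, where 1.51% of 21887 coding genes had one. Replicate 2 also had 1 of 4, against 5.16% of coding genes, and replicate 3 had 3 of 4, against 31.5%. Regions in at least 2 replicates were found at 2 of 4 members and at 5.43% of coding genes, and 0 of 4 members had regions in all 3 replicates, as 0.836% of coding genes did. With 4 genes these counts are a description and carry no test. Regions with a fold of at least 5 were found at 0, 0 and 2 of the 4 members in replicates 1, 2 and 3. Of coding genes, 0.713%, 0.882% and 8.49% had one. The 2 members were Mef2a and Mef2d, with 3 such regions. With genes assigned by RefSeq body and 1 kb around it, regions were found at 1, 0 and 3 of the 4 members, against 1.91%, 6.23% and 36.5% of coding genes.

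The strength of each region is given by the authors' fold at the strongest summit, the ratio of fragment pileup to local background. The pileups and backgrounds printed here were solved with 1 added to both before the ratio is taken, so the fold is smaller than the plain ratio of the printed values. It is used only to place a region within the list of its own replicate. The median fold of all regions was 4.86, 4.01 and 3.81 in replicates 1, 2 and 3. The 6 Mef2 regions of replicate 3 had folds from 2.99 to 7.76 with a median of 4.68. The single Mef2 regions of replicates 1 and 2 lay below the median of their lists.

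**Figure D1:**
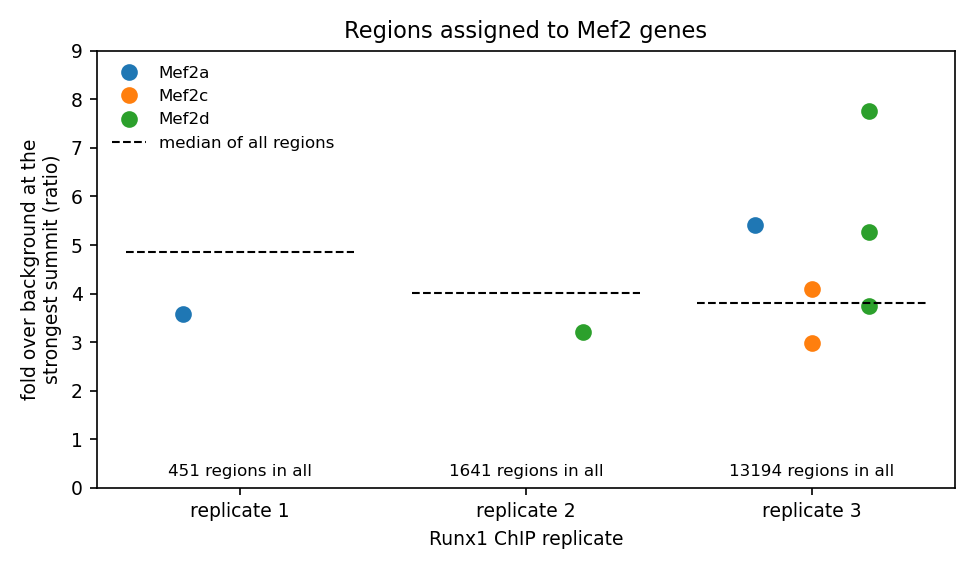
Fold over background at the strongest summit (y axis, ratio) of every region assigned to a Mef2 gene, by replicate (x axis). Points are regions, and dashed lines are the medians of all regions, 4.86, 4.01 and 3.81. The points of replicates 1 and 2 lie below the line, and 4 of 6 points of replicate 3 lie above it.

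Mef2a (ENSMUSG00000030557) encodes a broadly expressed family member. Its RefSeq body spans chr7:67231163-67376456 on the minus strand. Its region in replicates 1 and 3 fell in the promoter class of the authors' annotation, which covers 1 kb around a start. In replicate 1 the region was chr7:67373068-67373301 with a fold of 3.58, a summit pileup of 15 fragments (95% Poisson interval 8.4 to 24.7) and a background of 3.47. In replicate 3 it was chr7:67372825-67373505 with a fold of 5.42, a pileup of 53 (39.7 to 69.3) and a background of 8.96. Replicate 2 had no region assigned to Mef2a, and its nearest region lay 755538 bp from that of replicate 3, at Igf1r.

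The Mef2a region of replicate 1 was among the weakest calls of its list, and that of replicate 3 was in the upper part of its own. The first had a −log10 q of 2.05, where the lowest value in the list was 2.01, and ranked 439 of 451 by q. The second had a −log10 q of 19.8, ranked 1004 of 13194, and lay at the 84.6 percentile of fold. All 234 bp of the region of replicate 1 lay within that of replicate 3, and the summits were 96 bp apart. Among 428 overlapping pairs of regions from these replicates the median summit distance was 56 bp. A region of replicate 1 overlapped 4.17% of all promoter-class regions of replicate 3.

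The summits lay 271 and 175 bp upstream of the RefSeq start of Mef2a. The gene's RefSeq body reaches 3598 bp further upstream than that start, so longer transcripts run through the region. A second summit of the region in replicate 3 had a fold of 2.74. Replicate 3 also had a region at chr7:67371622-67371887, within the body of Mef2a, which the authors assigned to the predicted gene Gm44668 (fold 4.01). It counts for Mef2a only when genes are assigned by their bodies.

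Mef2d (ENSMUSG00000001419) encodes a family member expressed in neurons and many other cells. It had the most regions of the family, 1 in replicate 2 and 3 in replicate 3, at a body of chr3:88141941-88172091. The strongest was distal intergenic in the authors' classes and lay upstream of the gene. In replicate 2 it was chr3:88138383-88138767 with a fold of 3.21, 26 fragments at the summit (95% Poisson interval 17.0 to 38.1) and a background of 7.41. In replicate 3 it was chr3:88138212-88139086 with a fold of 7.76, a pileup of 58 (44.0 to 75.0) and a background of 6.60.

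The upstream Mef2d region had nearly the same summit in both replicates. The summits were 3865 and 3847 bp from the RefSeq start, 18 bp apart, and the median distance over 1523 overlapping pairs of these replicates was 164 bp. Within replicate 2 the region was low by fold, at the 6.67 percentile, and near the middle by q, at rank 945 of 1641. Its pileup there was 26 fragments, against a median of 20 over all summits of replicate 2. Within replicate 3 the region was strong, at the 96.5 percentile of fold and rank 71 of 1276 distal intergenic regions. The median fold of those distal regions was 3.91. Of those 1276 regions, 8.07% were overlapped by a region of replicate 2. Replicate 1 had no region there.

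The other Mef2d regions were called in replicate 3 alone. One covered the start site at chr3:88141892-88142400, with its summit 162 bp upstream of the start, a fold of 5.27 and 49 fragments (95% Poisson interval 36.3 to 64.8). The RefSeq body of Mef2d reaches 431 bp further upstream than that start, so this summit, like the printed bases before the start, lies inside the body. Another lay inside the gene at chr3:88143133-88143896, with its summit 1149 bp downstream, a fold of 3.74 and 23 fragments (14.6 to 34.5). The first lay at the 83.0 percentile of the list and the second at the 46.9 percentile. A gene with 3 or more regions, as Mef2d, made up 3.36% of coding genes in replicate 3.

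Mef2c (ENSMUSG00000005583) encodes the member known from muscle, cortical neurons and microglia. Its strongest region had a lower fold than the strongest regions of Mef2a and Mef2d in replicate 3, and replicates 1 and 2 had none assigned to it. Both were in the promoter class of Ensembl transcripts that start inside the RefSeq body, chr13:83504017-83667079. The region at chr13:83524273-83524617 had a fold of 2.99 from 26 fragments (95% Poisson interval 17.0 to 38.1) and lay at the 14.2 percentile. The region at chr13:83525204-83525825 had a fold of 4.09 from 20 fragments (12.2 to 30.9) and lay at the 59.6 percentile. Their summits were 844 and 2041 bp downstream of the nearest of 3 RefSeq starts. Having 2 or more regions was seen in 8.05% of coding genes in replicate 3.

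**Figure D2:**
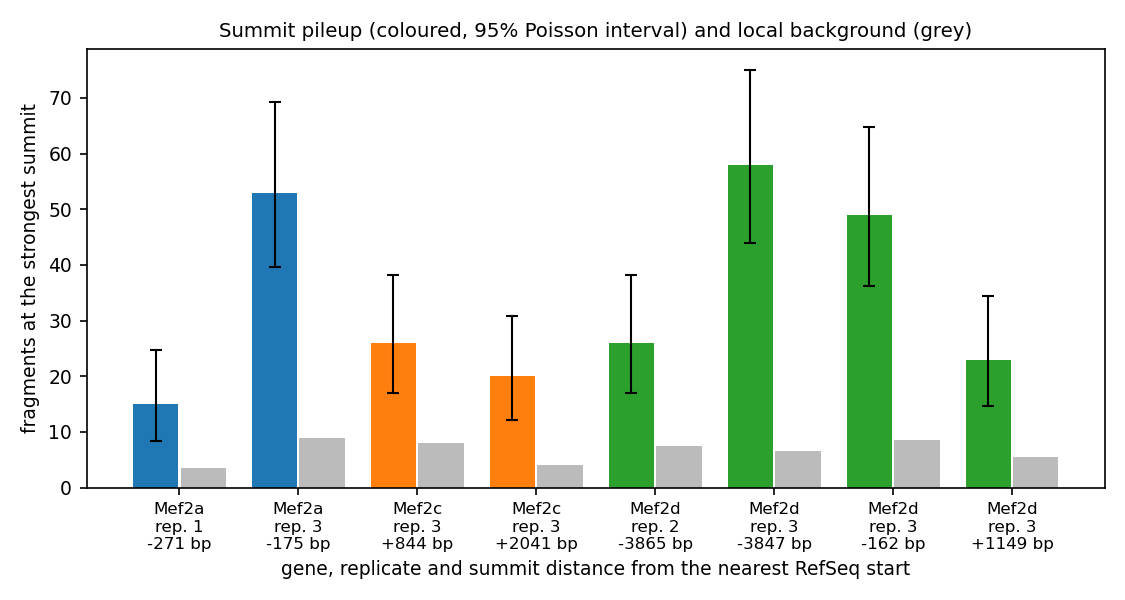
Fragments at the strongest summit (y axis) of the 8 Mef2 regions, labelled by gene, replicate and distance from the nearest RefSeq start. Coloured bars are pileups with 95% Poisson intervals, which cover counting error only, and grey bars are the local background. In replicate 3 the summits of 58, 53 and 49 fragments have overlapping intervals, as do those of 26, 23 and 20.

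Ordered by pileup in replicate 3, the strongest summits of the 6 Mef2 regions formed a higher and a lower set. The upstream Mef2d summit, the Mef2a summit and the Mef2d start-site summit had 58, 53 and 49 fragments, with intervals that overlapped. The first Mef2c summit, the inner Mef2d summit and the second Mef2c summit had 26, 23 and 20, again with overlapping intervals. This lower set lay around the median of 24 over all summits of replicate 3. The weaker summits within the Mef2a region and the second Mef2c region, not ordered here, had 25 and 15. The intervals of the upstream Mef2d and Mef2a summits did not overlap those of the lower set, and that of the Mef2d start-site summit did, at its lower end, with the first Mef2c summit alone. Of the 6 regions, 5 were in the promoter class (83.3%, exact 95% interval 35.9 to 99.6), against 62.6% of all regions of replicate 3. A region of replicate 1 or 2 overlapped 2 of the 6, against 11.7% of all regions.

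Mef2b encodes the most divergent member, known from B cells of germinal centres. It had 0 assigned regions in the 3 replicates. Its RefSeq body is chr8:70152761-70167488. The nearest region of replicate 3 lay 4.62 kb past its end at the promoter of Tmem161a (fold 4.34), and those of replicates 1 and 2 lay 66706 and 402865 bp away. A stronger region of replicate 3 lay 13.1 kb upstream at the promoter of Borcs8, which encodes a subunit of the BORC complex of lysosome positioning (chr8:70138909-70139642, fold 8.61, 97.7 percentile). RefSeq lists a read-through gene of both, Gm45929, which starts where Borcs8 does and ends where Mef2b does. The absence of an assigned region does not show that Runx1 was absent from the gene.

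The wider loci of Mef2c and Mef2d held regions assigned to neighbouring non-coding genes. Past the end of Mef2c lies Mir9-2, a gene of the neural microRNA miR-9, at a distance of 71.7 kb, and past the end of Mef2d lies its paralogue Mir9-1, at 43.5 kb. Within 100 kb downstream of Mef2c there were 1, 9 and 8 regions in replicates 1, 2 and 3, assigned to the long non-coding RNA genes C130071C03Rik and Gm26803. They covered 267, 8130 and 27867 bp, with highest folds of 4.12, 6.43 and 10.7, the last of them in the list where Mef2c had 2.99 and 4.09. In replicates 2 and 3 a region covered Mir9-2 itself. The first of these regions lay 47.3 kb from the end of Mef2c in replicate 3.

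The region closest to the 3′ end of Mef2d was found in all 3 replicates. It lay 5.57, 5.51 and 5.50 kb past the end of the gene, at the start of 1700113A16Rik, an antisense gene whose body reaches into that end. Its folds were 5.86, 4.05 and 5.63 in replicates 1, 2 and 3. In replicate 3 a weaker region (fold 3.15) lay 43.8 kb past the end, next to Mir9-1. These assignments rest on the nearest start site, and the data do not link a region to the gene it acts on.

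**Figure D3:**
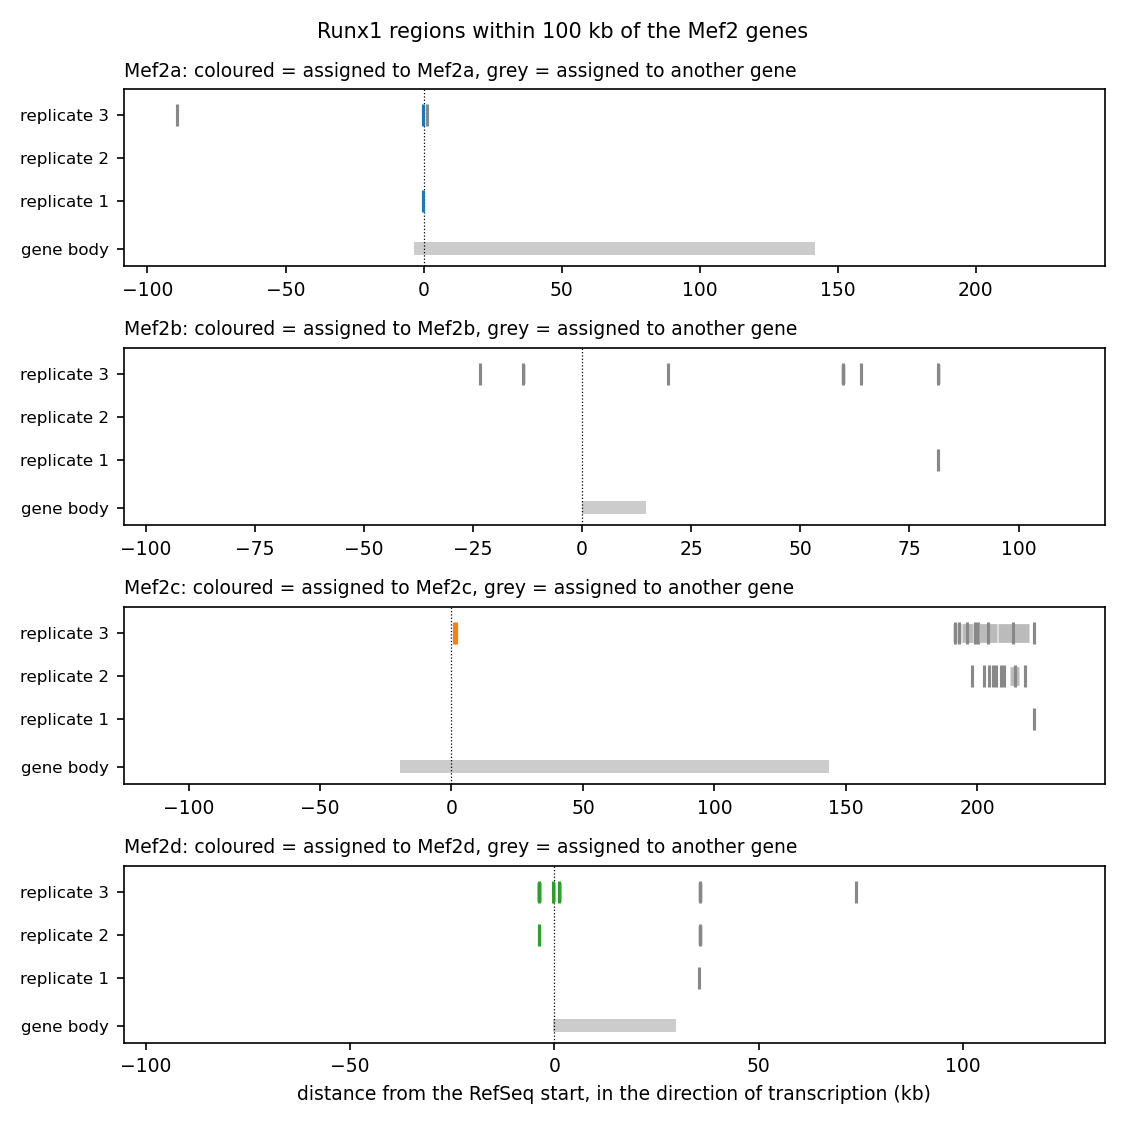
Regions within 100 kb of each Mef2 gene by replicate (rows), against distance from a RefSeq start in the direction of transcription (x axis, kb). Coloured marks are regions assigned to the gene, grey marks are regions assigned to another gene, vertical ticks are region centres, and the grey bar is the RefSeq gene body. The 8 grey regions of replicate 3 to the right of Mef2c cover 27867 bp.

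The promoter windows with a region were the CG-rich ones. Each window of the reference table spans 250 bases before and 50 bases after a RefSeq start, and the 4 genes had 6 windows, 3 of them in Mef2c. The Mef2a and Mef2d windows held 27 and 24 CG dinucleotides and had G or C at 62.3% and 72.0% of bases. The Mef2b window held 11, and the Mef2c windows held 1, 10 and 4. A region of replicate 3 overlapped 2 of the 6 windows, against 26.5% of the 21263 windows of coding genes. Replicate 1 overlapped 1 window, that of Mef2a, against 1.2%, and replicate 2 overlapped 0, against 3.48%.

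The same order was seen over all coding genes. With windows sorted by CG count into 4 equal bins, a region of replicate 3 overlapped 1.62% of windows in the lowest bin, 13.4% and 44.5% in the middle bins and 46.7% in the highest. In replicate 1 the share rose from 0 to 3.01%, and in replicate 2 from 0.113% to 6.73%. Mef2a belonged to the highest bin, Mef2d to the next, Mef2b and the other Mef2c starts to the second, and the first Mef2c start to the lowest. Windows with 4, 13 or 24 CG dinucleotides lie on the borders of bins, so ties set the bin of Mef2d and of the last Mef2c start. The part of CG content in the difference between Mef2 genes was not tested.

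**Figure D4:**
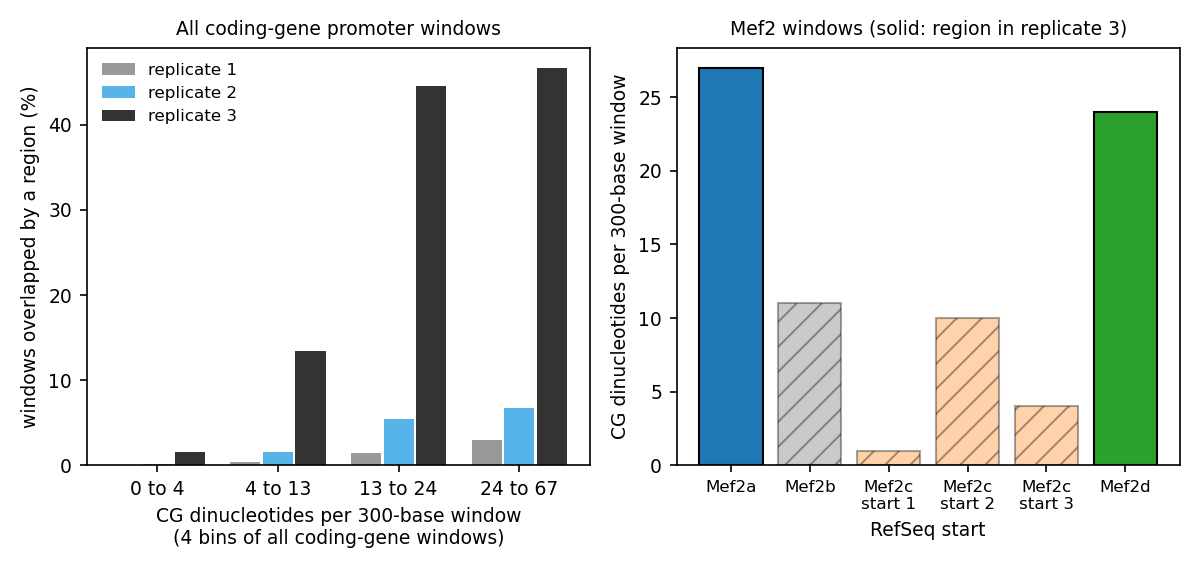
Left, share of coding-gene promoter windows overlapped by a region (y axis, %) in 4 bins of CG count (x axis), by replicate. Right, CG dinucleotides in the 6 Mef2 windows (y axis), solid where a region of replicate 3 overlaps and hatched where none does. The solid bars stand at 27 and 24 and the hatched bars between 1 and 11.

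A sequence match to a MEF2 pattern lay at the start of Mef2a, and MEF2 binding was not measured. The windows were searched on both strands for the RUNX core motifs TGTGGT and TGCGGT and for a MEF2 pattern of CTA and TAG separated by any 4 bases, which reads the same on either strand. A match to one of these motifs is never a match to another. The one MEF2 match among the 6 windows began 2 bases before the RefSeq start of Mef2a, at chr7:67372851-67372860, and is shown in capitals with its flanks, chr7:67372843-67372868 on the minus strand.
Mef2a start: cctgactcCTAAAAATAGccccggtg
The Mef2a region of replicate 3 covered this match, and that of replicate 1 did not reach it. The pattern was present in 3.47% of coding-gene windows. Neither RUNX core was found in any of the 6 Mef2 windows, where 21.6% of all windows held at least one. These windows do not include the upstream and inner Mef2d regions or the Mef2c regions, whose sequence was not used here. They cover only part of the Mef2a regions and of the Mef2d start-site region, and the Mef2a summit of replicate 1 lies outside. Whether the rest of these regions holds a RUNX core was not searched.

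Genes of MEF2 regulation were compared with coding genes by counts of assigned regions, over 4 lists of 57 genes in all. These lists were chosen with earlier results of these data known, so their shares are a description only. Regions were found at 3, 8 and 33 of the 57 in replicates 1, 2 and 3, or 5.26%, 14.0% and 57.9%, where coding genes had 1.51%, 5.16% and 31.5%. At least 2 replicates had regions at 9 of the 57, against 5.43% of coding genes. The median fold of the strongest region was 4.88 in replicate 3, against 4.04 over the 6885 coding genes with a region. The lists were not matched on gene length or on promoter CG content, and they carry no test.

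Co-repressors and co-activators had the highest share in replicate 3. Regions were found there at 12 of 13 genes (92.3%, against 31.5% of coding genes). Replicate 2 had 1 (7.69%, near the 5.16% of coding genes) and replicate 1 had 0, against 1.51%. Ncoa2, a nuclear receptor co-activator that also binds MEF2C, had folds of 3.63 and 5.29 in replicates 2 and 3. In replicate 3 the acetyltransferase genes Crebbp, Kat2b and Ep300 had folds of 5.61, 5.58 and 5.27, and Ywhaz, a 14-3-3 protein that binds phosphorylated partners, 5.21. Of the class IIa deacetylases, picked out after their values were seen, Hdac5, Hdac4 and Hdac9 had folds of 5.03, 4.88 and 3.90, and Hdac7 was the gene of the list without a region.

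Upstream signalling genes stood near all coding genes in replicate 3, with regions at 6 of 18 (33.3% against 31.5%). Replicate 1 had a region at 1 of them (5.56% against 1.51%) and replicate 2 at 2 (11.1% against 5.16%). Gsk3b, a kinase known to regulate MEF2D, was found in all 3 replicates, with folds of 5.78, 6.17 and 8.99. Ppp3r1, the regulatory subunit of calcineurin, had folds of 3.40 and 4.50 in replicates 2 and 3. In replicate 3, Ppp3ca, a catalytic subunit of calcineurin, had 6.84, and Mapk7, the kinase ERK5, 5.93. Prkaca and Mapk14, the catalytic subunit of protein kinase A and the kinase p38 alpha, had 3.87 and 3.35. MADS-box and binding partner genes had regions at 0 of 10 in replicates 1 and 2, against 1.51% and 5.16% of coding genes. Replicate 3 had regions at 4 of the 10 (40%, against 31.5%). These were Notch1 (4.74), the calcium-responsive factor Nfatc3 (4.66), the SRF co-activator Mrtfb (4.31) and Srf itself (3.41).

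Textbook MEF2 targets had regions in each replicate. They were found at 2, 5 and 12 of 17 genes in replicates 1, 2 and 3 (11.8%, 29.4% and 70.6%, against 1.51%, 5.16% and 31.5% of coding genes), and 6 had regions in at least 2 replicates, against 5.43%. The immediate early gene Fos was found in all 3, with folds of 5.44, 5.22 and 6.21. Jun, its AP-1 partner, had 5.49 and 8.44 in replicates 2 and 3, the neurotrophin gene Bdnf 4.71 and 6.47, and the synaptic gene Arc 4.97 and 4.96. Homer1, a postsynaptic scaffold, had 3.32 and 2.91 in the same replicates. Klf6, a Kruppel-like factor, had 4.19 in replicate 1 and 3.90 in replicate 3.

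**Figure D5:**
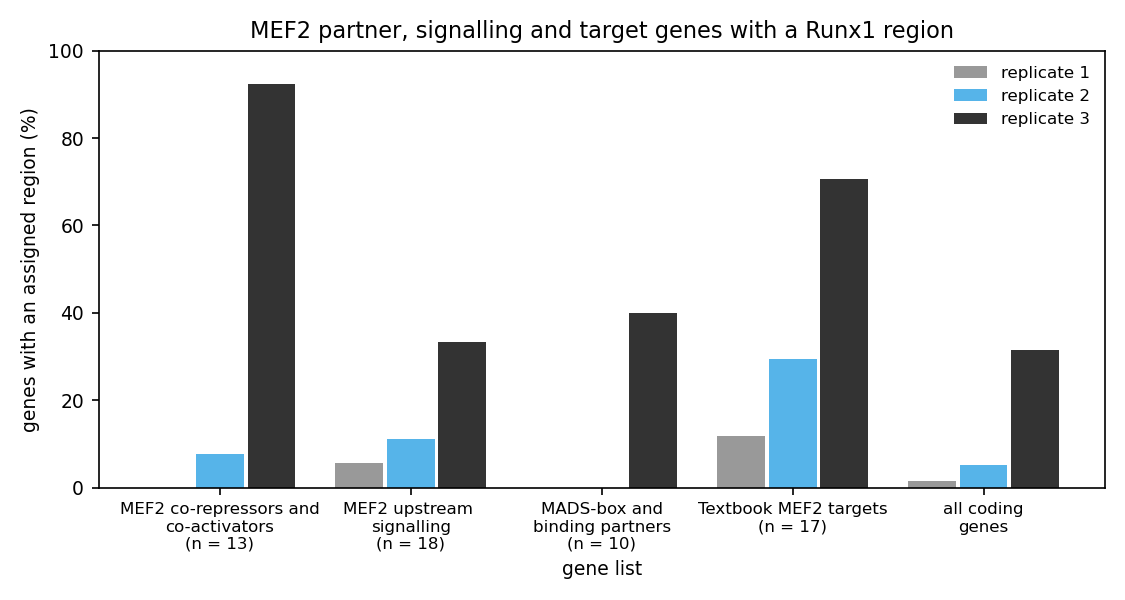
Share of genes with at least 1 assigned region (y axis, %) in 4 lists of MEF2 partners, signalling genes and targets and in all coding genes (x axis), by replicate. In replicate 3 the bars stand at 92.3%, 33.3%, 40.0% and 70.6% for the lists and 31.5% for all coding genes. The lists were chosen with earlier results of these data known.

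The genes most like Mef2a and Mef2d were sought among 6973 coding genes with a region, by Euclidean distance over 6 values, the log2 number of regions plus 1 and the log2 highest fold in each of the 3 replicates. For Mef2a they were Gabpb1 (distance 0.01, folds of 3.55 and 5.41 in replicates 1 and 3), Mob4 (0.09) and Zfp24 (0.16). Regions in exactly replicates 1 and 3, as at Mef2a, were found at 123 other genes among the 6973. For Mef2d they were Hivep3 (distance 0.08, folds of 3.32 and 8.09 in replicates 2 and 3), Bcar1 (0.22) and Inpp5a (0.23). Regions in exactly replicates 2 and 3, as at Mef2d, were found at 875 other genes among the 6973.

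Marker genes of cells that a spinal cord preparation can hold were read in the same way, and occupancy does not measure which cells the chromatin came from. In replicate 3, regions were assigned to 7 of 7 oligodendrocyte, 5 of 5 neuronal, 2 of 5 astrocyte, 2 of 7 microglial, 1 of 5 skeletal muscle and 0 of 4 endothelial markers. In replicate 2 the counts were 6, 1, 0, 1, 1 and 0, and in replicate 1 they were 0, 1, 0, 0, 0 and 0. Of all coding genes, 31.5%, 5.16% and 1.51% had a region in replicates 3, 2 and 1, and the astrocyte (40.0%) and microglial (28.6%) shares of replicate 3 lay near the first of these.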

How the data were processed

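The members and gene lists were chosen with earlier results of these data known. Adapter trimming, alignment and peak calling were done by the authors with Trimmomatic 0.38, Bowtie2, SAMtools 1.9, Picard 2.18.26 and MACS2 2.1.2 on GRCm38, per the submitters' processing notes. No source used here gives the parameters or the control library. The deposited lists, called per replicate, give each summit a score, a fold (ratio), −log10 p and −log10 q. Starts count from 0 there and from 1 here.

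Regions were counted once, with the fold of the strongest summit. Pileup and background were solved from the deposited fold, read as pileup plus 1 over background plus 1, and −log10 p under a Poisson model, to within 0.001 in −log10 p for 100% of summits, and the method was tested on simulated data. Read depth is otherwise unknown; the lowest background level was 2.23, 2.67 and 3.13 fragments in replicates 1, 2 and 3. Intervals are 95% and cover counting error only. Percentiles are within a replicate's list. Overlap means at least 1 bp. Coding genes, starts and sequences came from RefSeq (GRCm38.p6), and 98.8%, 99.7% and 99.1% of coding symbols matched. All 4 members matched. Named genes were the members, from each list up to 6 genes, taken by the number of replicates with a region and then by fold in replicate 3, and the 3 genes most like each member with regions in at least 2 replicates. One gene that this rule names is not reported here. Alternatives were limits of −log10 q or fold of 5, RefSeq bodies with 1 kb around them, other definitions of overlap and of the start-site class, and leaving out each replicate. Tables and overlaps were made with pandas 2.3.3 and numpy 2.4.6 in Python 3.11.15, intervals with scipy 1.17.1 and plots with matplotlib 3.10.9.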

Additional observations from a re-analysis of the deposited data

How the results depend on the processing

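Of 39 alternative values, 17 were equal or close to the reported one and 22 moved, most of them counts of 1 or 2. A count within a ratio of 1.5 was taken as close. The changed median folds and promoter shares given below were also labelled as close. At a −log10 q of at least 5 and at a fold of at least 5, replicates 1 and 2 each had 0 Mef2 regions and 0 Mef2 genes, so 0 genes had regions in at least 2 replicates. These limits shorten the lists for every gene. No share of all coding genes is given for the q limit, or for regions in at least 2 replicates under any alternative. The fold limit left 3 Mef2 regions in replicate 3. At that limit 2, 3 and 14 of the 57 list genes had regions in replicates 1, 2 and 3. Of all coding genes, 0.713%, 0.882% and 8.49% had one. With RefSeq bodies and 1 kb around them, replicate 2 had 0 Mef2 regions and genes, since its Mef2d region lies outside, and 1 gene, Mef2a, had regions in at least 2 replicates. Leaving out each replicate in turn left 0 to 1 Mef2 genes with a region in both others: Mef2d without replicate 1, Mef2a without replicate 2 and 0 without replicate 3. The regions of replicate 3 that were overlapped fell from 2 to 1 without replicate 1 or 2, and to 0 with the q limit in each list. No share of all regions is given for these settings. The median fold of 4.68 became 3.92 with the mean over summits and 5.27 at the q limit. The promoter share became 66.7%, both within 1 kb of a RefSeq start and at the fold limit. Matching values over all regions are not given, so these are not set against a background. Pileups of 15 to 58 fragments limit the precision of each fold. No paired analysis was possible because all replicates belong to 1 group.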

Other observations

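The share of promoter windows with a RUNX core motif was nearly the same with and without a region, while windows with a region held more CG dinucleotides. Of 5643 coding-gene windows overlapped by a region in replicate 3, among them those of Mef2a and Mef2d, 21.3% held TGTGGT or TGCGGT, against 21.7% of the other 15620 windows. The MEF2 pattern was present in 2.98% and 3.65%. The median number of CG dinucleotides was 23 and 7. These are counts of letters in 300 bases and carry no test. The core motifs are short, and the windows do not follow the summits.

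Near Mef2b, which had no assigned region, replicate 3 had 6 regions within 100 kb of the gene body. The strongest was a distal region assigned to Slc25a42, a mitochondrial carrier gene, 48.9 kb past the end of Mef2b with a fold of 9.25.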
